A study of Drosophila melanogaster with 17 samples.

Results

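The mitochondrial ribosomal protein genes of Drosophila melanogaster were taken as the genes whose symbol starts with mRpL (large subunit) or mRpS (small subunit) and that had a probe set annotated to them alone. The rule found 69 genes, 44 of the large and 25 of the small subunit, among 11982 genes with such a probe set. The RefSeq table lists 73 genes with a symbol of this form. Of the other 4, mRpL53 and mRpS10 had only probe sets annotated to a second gene as well, and mRpL34 and mRpL37 are not analysed here. mRpL47 and mRpS11 had 2 probe sets each, and the one with the higher mean signal over all arrays was used. The subunit was read from the symbol. In mammals the counterparts of mRpS18A and mRpS30 sit in the large subunit despite their names.

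The mitochondrial ribosome translates the few proteins encoded by the mitochondrial genome, which are core subunits of the respiratory chain and ATP synthase. Its own proteins are encoded in the nucleus, made in the cytoplasm and imported, and they assemble with mitochondrial ribosomal RNA into a large subunit, which forms peptide bonds, and a small subunit, which decodes the messenger. In Drosophila, loss of mitochondrial ribosomal proteins slows growth and development.

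The samples were eye imaginal discs, the larval epithelia that form the adult eye, dissected from larvae of the third instar raised at 25 °C. Discs were wild type, mutant for dDP (Dp, which pairs with E2F transcription factors so that they can hold DNA) or lacked de2f1 (the activating E2F factor) in their posterior part only. Each genotype was left untreated or given 40 Gy of gamma radiation and dissected 4 h later. Every group had 3 arrays except irradiated wild type, with 2 (numbers 1 and 3; number 2 is not analysed here), so that 17 arrays were compared, each hybridized with RNA labelled from 50 ng of total RNA. The labels call the replicates biological without saying how many discs or larvae each one pooled, and p-values measure the spread among these samples. No further alleles, drivers or genetic backgrounds were named. De2f1 discs keep the gene in their anterior cells, so a difference from wild type in that group averages over both kinds of cell.

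Values are log2 signals from robust multi-array averaging (RMA), on which a difference of 1 is a doubling. Differences were tested with limma over all 18769 non-control probe sets, with Benjamini-Hochberg adjustment, and "passed" means an adjusted p under 0.05. A share given as background is the share of all 18769 probe sets that passed, or met the stated condition, in the same comparison. In whole discs, fewer cells of a type and less RNA per cell cannot be told apart.

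The libraries differed in ways that bear on these genes. The 12 eye disc markers had array means of 10.30 to 10.62, and none fell on any array below 4.59, the highest lower quartile of an array, taken here as near background. Dp itself was lower in dDP than in wild type discs, by -1.96 ± 0.19 (log2, SE; adjusted p = 2.5e-06) untreated and -1.53 ± 0.21 (adjusted p = 9.3e-05) irradiated. On untreated dDP arrays 2 and 3 the actin control's 3′ probe set exceeded its 5′ probe set by 3.05 and 3.26 (log2), against 1.69 to 2.28 on the other 15 arrays, a gap that is wider in RNA that is shorter at its 5′ end. Untreated dDP array 1 had the highest mean of the 5 fat body markers, 11.54, against 5.88 to 10.34 on the other 16. The 10 salivary gland markers had means of 5.72 to 11.81, and the 3 untreated dDP arrays lay at 6.93, 5.72 and 6.06. This mean joins Sgs and ng markers, which did not always move together. On untreated dDP array 1 the Sgs markers read 4.73 to 5.73, while ng1, ng2 and ng3 read 11.41, 10.12 and 11.86. Irradiated dDP array 1 was split in the same way, with Sgs3 at 5.55 and ng3 at 11.26. The salivary gland marker ng4 was near background on 16 arrays and the fat body marker Yp1 on 15. The 9 hemocyte markers had means of 7.06 to 7.83 on the 6 dDP arrays and 8.59 to 10.05 on the other 11, and the 4 glia markers 9.67 to 9.96 against 10.32 to 10.63. The 5 muscle markers had means of 11.15 to 12.0 over all arrays. In irradiated discs these were 11.59 to 12.0 with dDP and 11.28 to 11.55 in the other genotypes, without overlap. The 5 neuron markers had means of 6.51 to 7.25.

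All 69 genes were expressed well above the dim end of the arrays. Their signals ran from 8.97 to 11.99 on single arrays, far from that lower quartile. Means over the 17 arrays were highest for mRpL33 (11.57), mRpL30 (11.50) and mRpS7 (11.26) and lowest for mRpL40 (9.45), mRpL18 (9.46) and mRpL11 (9.52). These are probe set signals and give no order of transcript amounts between genes. Over the 6 groups, 51 of the 69 genes differed (moderated F test in limma, background 39.4%), 35 of 44 in the large and 16 of 25 in the small subunit. The smallest adjusted p belonged to mRpL2 (3.6e-07), mRpL18 (2.6e-06), mRpL48 (3.3e-06) and mRpL30 (4.1e-06), all of the large subunit.

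As a set, the genes stayed close to the untreated wild type level in wild type and de2f1 discs and lay lower in irradiated dDP discs and on 1 of the 3 untreated dDP arrays. Each gene's signal was set against its mean on the untreated wild type arrays, and the median over the 69 genes was taken on each array. That median was 0.01, -0.02 and 0.01 on the untreated wild type arrays themselves and -0.03 and -0.07 on irradiated wild type arrays 1 and 3. It was 0.05, 0.04 and 0.04 in untreated and 0.00, 0.02 and -0.00 in irradiated de2f1 discs. In dDP discs it was -0.16, -0.19 and -0.23 on the 3 irradiated arrays and -0.15, 0.08 and 0.05 on untreated arrays 1, 2 and 3. Untreated dDP array 1 therefore lay just above the irradiated dDP arrays and apart from the other untreated dDP arrays.

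**Figure D1:**
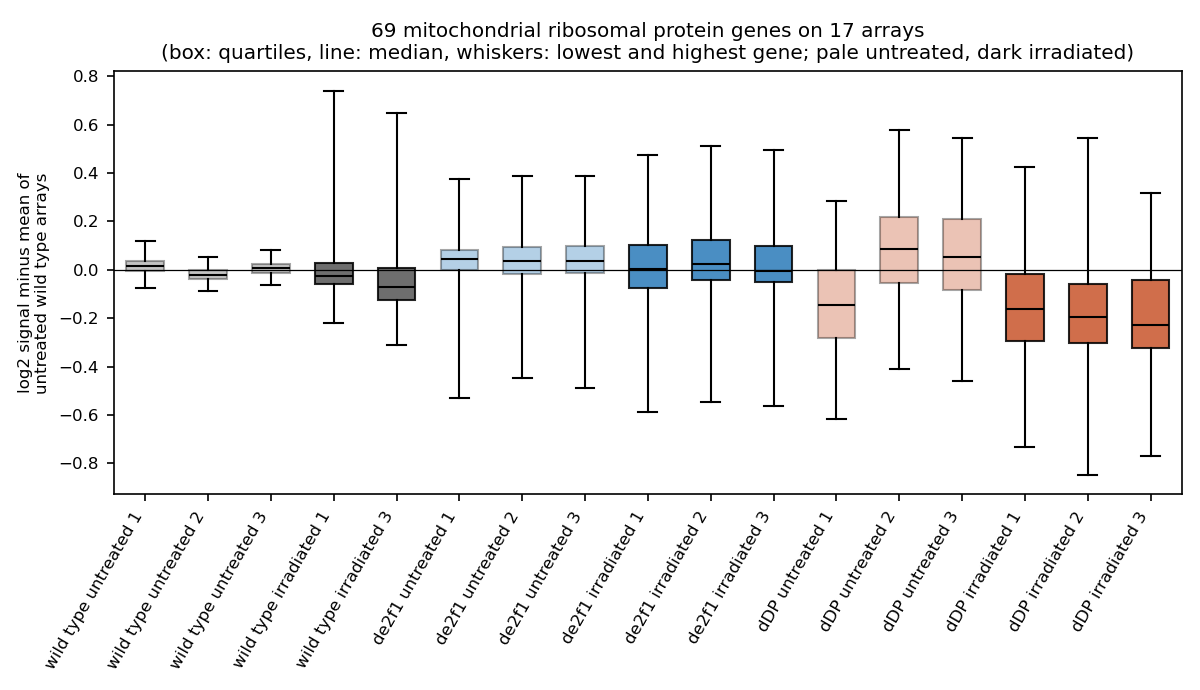
Signals of the 69 genes on each of the 17 arrays (x axis), as log2 difference from each gene's mean on the untreated wild type arrays (y axis). Boxes give the quartiles, lines the medians and whiskers the lowest and highest gene. The medians of the 3 irradiated dDP arrays and of untreated dDP array 1 lie between -0.23 and -0.15, and those of all other arrays between -0.07 and 0.08.

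The medians of the 41 genes of the cytoplasmic ribosome, measured the same way, did not show this. On the dDP arrays they were 0.02, 0.04 and 0.05 untreated and 0.01 to 0.03 irradiated. The median signal of these genes was 14.31 to 14.40 on single arrays, against 10.15 to 10.42 for the mitochondrial ribosomal protein genes. Whether differences are narrowed at so high a signal was not tested. The flat medians, and the counts for these genes below, therefore do not show that their RNA stayed level. A list of 72 genes of the respiratory chain and ATP synthase, called respiratory chain genes below, was also read. Their products include partners of the mitochondrially made proteins. Their medians were -0.07, 0.04 and 0.05 in untreated dDP discs, and after irradiation these ran from -0.15 to -0.09. These lists serve as a description, and no test was made between them.

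The first question is how dDP discs differed from wild type discs when both were irradiated, which leaves the untreated dDP arrays out of the contrast. Of the 69 genes 30 passed, 28 of them lower in dDP discs and 2 higher (background 23.2% in either direction, 13.0% lower and 10.2% higher). The median difference over the 69 genes was -0.14 and that over all probe sets -0.05. All 3 dDP arrays lay below both wild type arrays for 46 of the 69 genes (background 31.2%). Among the cytoplasmic ribosomal genes 2 of 41 were lower and 5 higher, and among the respiratory chain genes 13 of 72 were lower and 2 higher. Leaving out irradiated wild type array 1, which leaves that group a single array assumed to vary like the other groups, lowered the 30 to 19.

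The largest difference was that of mRpL2, whose bacterial counterpart is a core protein near the site of peptide bond formation. Its signals were 9.70 and 9.69 on the irradiated wild type arrays and 9.09, 8.97 and 9.08 on the irradiated dDP arrays. Every dDP array was below both wild type arrays by more than the spread within either group, and the difference was -0.65 ± 0.06 (SE, adjusted p = 2.0e-06), 0.638 times the wild type signal. mRpL9 read 9.99 and 9.94 in wild type and 9.33, 9.46 and 9.26 in dDP discs, again without overlap, a difference of -0.62 ± 0.10 (adjusted p = 2.7e-04). Both are large subunit proteins with bacterial counterparts.

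Other genes of the large subunit that were lower included mRpL44 (-0.49 ± 0.07, adjusted p = 1.2e-04), whose human counterpart carries a ribonuclease III-like domain. mRpL10, which anchors the stalk that recruits translation factors, differed by -0.42 ± 0.07 (adjusted p = 5.5e-04), and mRpL11, at the base of that stalk, by -0.23 ± 0.08 (adjusted p = 0.043). The stalk protein itself, mRpL12, did not pass (-0.14 ± 0.07, adjusted p = 0.19). mRpL55 differed by -0.39 ± 0.07 (adjusted p = 9.7e-04). In the small subunit the smallest adjusted p was that of mRpS23, a protein without a bacterial counterpart, with 9.95 and 9.88 in wild type against 9.48, 9.50 and 9.47 in dDP discs (-0.43 ± 0.07, adjusted p = 3.0e-04). Lower signals thus occurred among proteins shared with bacterial ribosomes and among those that are not.

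The comparison of irradiated dDP with irradiated de2f1 discs shares its dDP arrays with the last comparison, and its values stand beside those. Of the 69 genes 36 passed, 35 lower and 1 higher in dDP discs (background 25.9%, with 14.3% lower and 11.6% higher), and the median difference was -0.19. Among the respiratory chain genes 31 of 72 were lower and 2 higher, and among the cytoplasmic ribosomal genes 1 of 41 was lower and 3 higher. The irradiated de2f1 signals of mRpL2 were 9.70, 9.69 and 9.65, all above the dDP signals already given (-0.63 ± 0.05, adjusted p = 1.0e-06). mRpL9 read 10.03, 10.02 and 10.04, also clear of the dDP arrays (-0.68 ± 0.09, adjusted p = 4.7e-05). mRpL12, with 11.29, 11.28 and 11.26 in de2f1 and 11.06, 11.07 and 10.99 in dDP discs, passed here (-0.23 ± 0.06, adjusted p = 0.015). So did mRpS35 (-0.17 ± 0.05, adjusted p = 0.017), while mRpS29, a GTP-binding protein of the small subunit, did not (-0.13 ± 0.06, adjusted p = 0.15). Of the 36 calls 26 held when any 1 of the arrays compared was left out.

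The 1 gene that was higher than in de2f1 discs was mRpS5, whose bacterial counterpart lines the channel through which messenger RNA enters. Its signals were 11.15, 11.27 and 11.02 on the irradiated dDP arrays and 10.61, 10.85 and 10.68 on the irradiated de2f1 arrays (0.43 ± 0.14, adjusted p = 0.040). Irradiated wild type array 3 read 11.09 and array 1 10.75, so the spread between replicates was wide for this gene, and dDP did not differ from wild type by the test (0.22, adjusted p = 0.38).

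Markers of other cells moved with the dDP genotype in both irradiated comparisons. Of the 9 hemocyte markers 7 were lower in dDP than in wild type and 8 lower than in de2f1 discs, and of the 4 glia markers 2 and 3 were lower. No hemocyte marker was near background on any array, and their means ran from 7.06 to 7.54 in the irradiated group against 8.59 to 9.32 in irradiated wild type and de2f1 discs. The fat body markers had means of 8.21 to 9.92 in irradiated dDP discs and 5.91 to 8.44 in the others, and none of the 5 passed. With the fat body mean as a covariate the comparison with wild type had 26 genes passing, 22 of them lower, and a median of -0.07. Of the 5 muscle markers 1, Mlc2, was higher in dDP discs in both comparisons, and no neuron marker passed. Of the 12 eye disc markers 3 were lower and 1 higher than in wild type, and 2 were lower than in de2f1 discs. The part of any of these cells in the differences of the ribosomal protein genes was not tested.

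Both subunits held genes that were lower, and the difference between the subunits was not tested. In irradiated dDP against wild type discs 19 of 44 large and 9 of 25 small subunit genes were lower, with medians of -0.14 and -0.14. Against de2f1 discs the counts were 23 of 44 and 12 of 25, with medians of -0.21 and -0.16. The gap between the 2 medians on a single array, large minus small, was -0.01, -0.10 and -0.06 on the irradiated dDP arrays. On the 5 irradiated arrays of the other genotypes it ran from -0.03 to 0.02, so that dDP arrays 2 and 3 lay outside that range and array 1 within it.

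**Figure D2:**
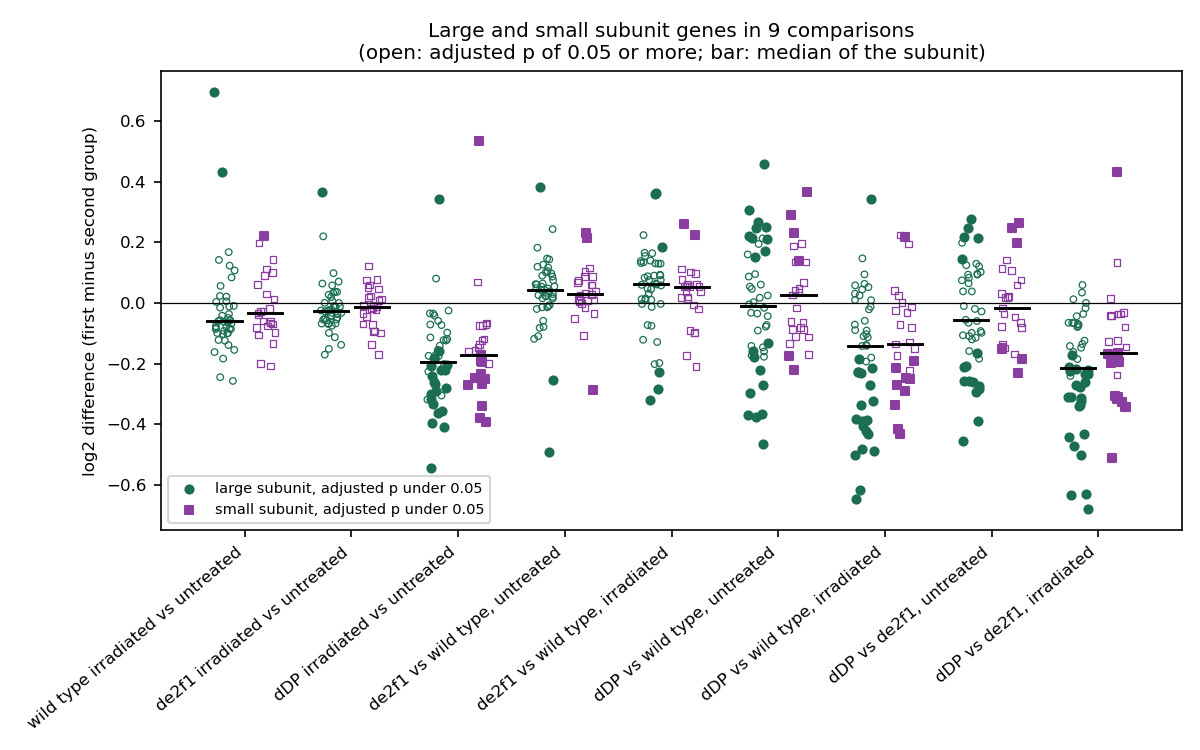
Log2 difference of each of the 69 genes (y axis) in 9 comparisons (x axis), with large subunit genes as green circles and small subunit genes as purple squares. Filled symbols passed at an adjusted p under 0.05 and bars are subunit medians, which lie at -0.14 for both subunits in irradiated dDP against wild type discs and at 0.03 to 0.06 in the 2 comparisons of de2f1 with wild type discs.

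Without irradiation, dDP and wild type discs differed in both directions. Of the 69 genes 26 passed, 12 lower and 14 higher in dDP discs (background 28.0%, with 15.9% lower and 12.1% higher), and the median was -0.00. Leaving out untreated wild type array 2 lowered the count to 16, the salivary gland mean as a covariate to 12 and a fit of those 6 arrays alone to 6. In this comparison 5 of the 10 salivary gland markers and 8 of the 9 hemocyte markers were lower in dDP discs and 1 hemocyte marker was higher. Lower too were 2 of the 4 glia and 3 of the 12 eye disc markers, and 1 of the 5 muscle markers was higher. The part of these cells in the comparison was not tested. The untreated and irradiated comparisons share no arrays. All 12 genes that were lower untreated were also lower irradiated, which is 42.9% of the 28: mRpL2, mRpL3, mRpL9, mRpL10, mRpL18, mRpL21, mRpL24, mRpL43, mRpL44, mRpL48, mRpS18B and mRpS23. Of the 14 that were higher untreated, 2 were higher irradiated, mRpL14 and mRpS9, and none was lower. The same overlap was not computed over all probe sets, so whether it is particular to these genes is not shown.

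mRpL2 showed the difference on every untreated dDP array. It read 9.82, 9.84 and 9.79 on the wild type arrays and 9.33, 9.47 and 9.52 on the dDP arrays, with no overlap (-0.38 ± 0.05, adjusted p = 9.0e-05). mRpL9 read 10.05, 10.05 and 10.01 in wild type and 9.42, 9.85 and 9.73 in dDP discs, where array 1 was the lowest (-0.37 ± 0.09, adjusted p = 0.0047). mRpL3, a core large subunit protein, read 9.84, 9.81 and 9.77 against 9.62, 9.64 and 9.68 (-0.16 ± 0.05, adjusted p = 0.017).

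Some of the genes that were higher in untreated dDP discs were so on arrays 2 and 3 more than on array 1. mRpL36, a small zinc-binding protein in bacteria, read 10.56, 10.54 and 10.62 in wild type and 10.65, 10.95 and 10.92 in dDP discs (0.27 ± 0.07, adjusted p = 0.0098). Its irradiated signals were 10.35 and 10.28 in wild type and 10.33, 10.31 and 10.24 in dDP discs, which overlapped (-0.02 ± 0.08, adjusted p = 0.89). mRpS6 read 9.56, 9.55 and 9.55 in wild type and 9.65, 10.04 and 10.07 in dDP discs (0.37 ± 0.09, adjusted p = 0.0050). mRpL4, which lines the exit tunnel for the new protein in bacteria, was higher on all 3 arrays, with 10.57, 10.68 and 10.69 against 10.43, 10.36 and 10.40 (0.25 ± 0.05, adjusted p = 9.7e-04).

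Untreated dDP and de2f1 discs differed in 22 of the 69 genes, 14 lower and 8 higher in dDP (background 22.3%, with 11.9% lower and 10.4% higher). All 14 were among the 35 that were lower in the irradiated comparison of the same genotypes, with which it shares no arrays (40% of the 35). That overlap was not computed over all probe sets either. The 8 higher genes were mRpL14, mRpL36, mRpL38, mRpL45, mRpL49, mRpS6, mRpS28 and mRpS31, and none of them passed in either direction after irradiation. The 22 became 12 without untreated de2f1 array 1, 14 without de2f1 array 3 and 13 without dDP array 3. It was 13 with the salivary gland covariate and 3 with those arrays fitted alone. In this comparison 7 of the 9 hemocyte, 3 of the 4 glia, 5 of the 12 eye disc and 1 of the 10 salivary gland markers were lower in dDP discs, and 1 of the 5 muscle markers was higher. Their part in it was not tested.

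Each untreated dDP array was then examined on its own. Array 1 was below both other untreated dDP arrays for 65 of the 69 genes and above both for 2 (51.7% and 28.4% of all probe sets), and the median of its differences from their mean was -0.22. Arrays 2 and 3 differed from each other by a median of 0.03. For 53 of the 69 genes array 1 was nearer the mean of the irradiated dDP arrays than the mean of untreated arrays 2 and 3. The share of all probe sets for which this held was not computed, so it may not be particular to these genes. The median standard deviation of a gene within untreated dDP discs was 0.129, against 0.032 to 0.049 in the other 5 groups. Over all 18769 probe sets it was 0.114 in untreated dDP discs and 0.064 to 0.087 elsewhere.

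The 28 genes that were lower in irradiated dDP than wild type discs were then read on the untreated arrays. That contrast left those arrays out, but they entered each gene's estimate of spread. The reading is therefore not fully independent of the choice of genes. On untreated dDP array 1 all 28 lay below every untreated wild type array (44.4% of all probe sets did), with a median difference of -0.32 and a range from -0.62 to -0.09. On array 2, 17 of the 28 did (35.4% of all probe sets), with a median of -0.07, and on array 3, 20 did (34.6%), with a median of -0.09. On the untreated de2f1 arrays 7, 7 and 8 of the 28 lay below every wild type array (28.9%, 33.7% and 30.9% of all probe sets). The 39 genes that had not passed had medians of -0.03 on dDP array 1 and of 0.19 and 0.17 on arrays 2 and 3. On each of the 3 arrays the 28 genes thus had a lower median than the 39, while the level of both groups was higher on arrays 2 and 3.

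**Figure D3:**
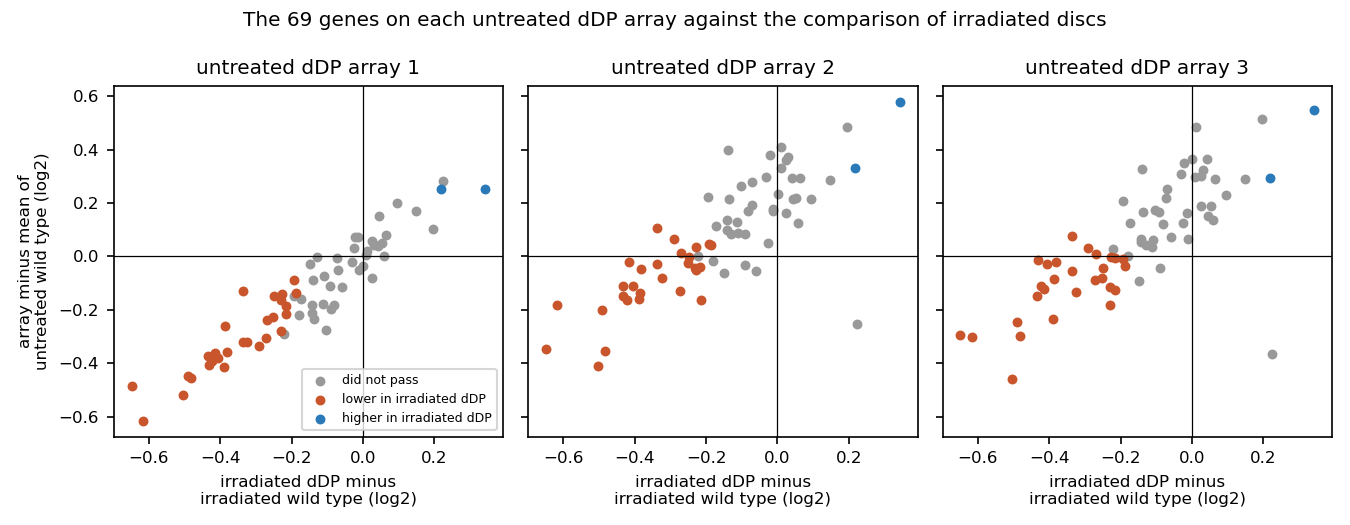
Each panel shows 1 untreated dDP array, with the 69 genes placed by their log2 difference between irradiated dDP and irradiated wild type discs (x axis) and by that array's log2 difference from the mean of the untreated wild type arrays (y axis). Orange points are the 28 genes that were lower in irradiated dDP discs, blue the 2 that were higher and grey the 39 that did not pass; the orange points have medians of -0.32, -0.07 and -0.09 on arrays 1, 2 and 3.

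mRpS5 ran against the other genes on these arrays. It read 11.01 on untreated dDP array 1 and 10.47 and 10.36 on arrays 2 and 3, against 10.70, 10.70 and 10.77 in untreated wild type discs. It was therefore above wild type on array 1 and below it on arrays 2 and 3. On the 2 arrays with the high actin ratio the median of the 69 genes was 0.08 and 0.05, and on array 1, with the high fat body mean and an actin ratio of 1.90, it was -0.15. The irradiated dDP arrays had actin ratios of 1.96 to 2.11. The part of RNA quality and of fat body RNA in the gap between the untreated dDP arrays was not tested.

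**Figure D4:**
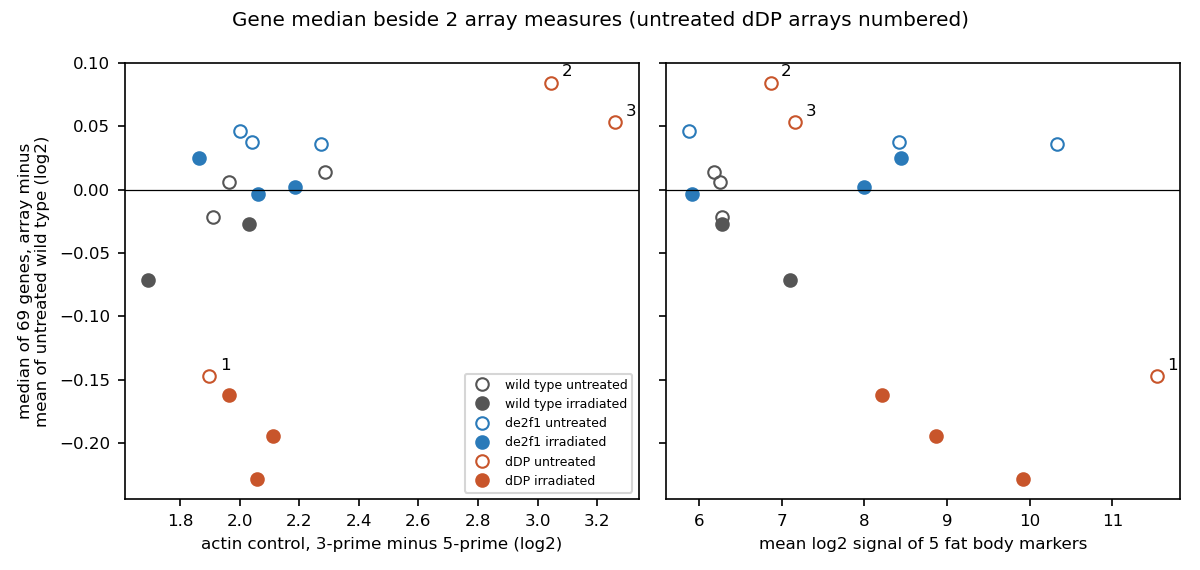
Median log2 difference of the 69 genes from untreated wild type (y axis) on each array, against the difference between the 3′ and 5′ actin control probe sets (left x axis, log2) and the mean log2 signal of 5 fat body markers (right x axis); the untreated dDP arrays are numbered. Arrays 2 and 3 stand apart on the left at 3.05 and 3.26, and array 1 on the right at 11.54.

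Irradiation itself had different counts in the 3 genotypes. In wild type discs 3 of 69 genes rose and none fell (background 4.51%, with 2.59% higher and 1.92% lower), and 9 had an unadjusted p under 0.05 (14.3% of all probe sets did). In de2f1 discs 1 rose and none fell (background 2.3%, with 1.37% higher and 0.927% lower), and 5 had an unadjusted p under 0.05 (11.6% of all probe sets). In dDP discs 2 rose and 30 fell (background 8.84%, with 4.45% higher and 4.38% lower), 19 of 44 in the large and 11 of 25 in the small subunit. The medians were -0.06 in wild type, -0.02 in de2f1 and -0.19 in dDP discs.

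The fall in dDP discs depended on which untreated array it was measured from. For the 30 genes that fell, the mean of the irradiated arrays lay below untreated array 1 by a median difference of -0.11, below array 2 by -0.35 and below array 3 by -0.35. The 30 were chosen by a test on these same arrays, so these values are a description. Over all 69 genes, untreated array 1 was above every irradiated dDP array for 36 (background 26.7%) and below every one for 15 (background 30.6%). Arrays 2 and 3 were above every irradiated array for 64 and 62 genes (background 39.9% and 42.9%). The count of 32 genes passing became 55 without untreated array 1, 11 without untreated array 2, 12 without untreated array 3, 12 without irradiated array 2 and 13 without irradiated array 3. With arrays 2 and 3 both left out it was 4, with a median of -0.05. When the 6 dDP arrays were fitted alone no gene passed in limma (34 had an unadjusted p under 0.05, as did 14.9% of all probe sets), array weights gave 54, and the actin gap and the salivary gland mean as covariates left 11 and 5. The shares of all probe sets passing in these settings are not given here, so whether the changes in count are particular to these genes is not shown. The salivary gland means join Sgs and ng markers that differed from each other on single arrays. They were 7.22, 11.76 and 11.52 on the irradiated dDP arrays, all above the untreated ones, and none of those 10 markers passed. Their part in the fall was not tested.

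The difference between genotypes in the response to irradiation was tested with an interaction term. No gene passed for dDP against wild type (limma, background 0.202%), with 18 at an unadjusted p under 0.05 (9.47% of all probe sets) and 67 of 69 differences below 0 (median -0.16). None passed for dDP against de2f1 either (limma, background 0.117%), with 26 at an unadjusted p under 0.05 (10.7% of all probe sets) and 68 of 69 below 0 (median -0.16). None passed for de2f1 against wild type (limma, background 0.0533%), with 1 at an unadjusted p under 0.05 (4.1% of all probe sets) and a median of 0.01. Over all probe sets the medians for dDP against wild type and against de2f1 were -0.02 and -0.02, and the share below 0 was not computed. Without untreated dDP array 1 the genes passing in these 2 tests were 27 and 37, and with array weights they were 11 and 31. The shares of all probe sets passing in those settings are not given here. Without untreated dDP arrays 2 and 3, which leaves that group 1 array, the medians over the 69 genes were -0.021 and -0.025.

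The 11 genes whose change in dDP discs passed with any 1 of the dDP arrays left out were mRpL36, mRpL2, mRpL23, mRpL47, mRpL48, mRpL51, mRpL55, mRpS16, mRpS24 and mRpS33, which fell, and mRpL30, which rose. mRpL36 read 10.65, 10.95 and 10.92 before and 10.33, 10.31 and 10.24 after irradiation, without overlap (-0.55 ± 0.07, adjusted p = 2.3e-04). Its values for irradiation in wild type and de2f1 discs were -0.26 ± 0.08 and -0.11 ± 0.07, which did not pass (adjusted p = 0.093 and 0.65). mRpL2 fell from 9.33, 9.47 and 9.52 to 9.09, 8.97 and 9.08 (-0.40 ± 0.05, adjusted p = 3.1e-04), so that array 1 was again the nearest to the irradiated arrays. mRpS24, the counterpart of a bacterial protein at the entry of the messenger channel, fell from 9.54, 9.74 and 9.68 to 9.34, 9.28 and 9.33 (-0.34 ± 0.05, adjusted p = 0.0013). For mRpL47 its second probe set also fell, by -0.19 (adjusted p = 0.029) against -0.33 (adjusted p = 0.0090) for the one used.

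mRpL30 was the 1 gene of the 69 that passed after irradiation in all 3 genotypes, and it rose in each. It is a large subunit protein with a bacterial counterpart. In wild type discs it went from 11.31, 11.22 and 11.21 to 11.99 and 11.90 (0.70 ± 0.07, adjusted p = 1.9e-05). In de2f1 discs it went from 11.37, 11.36 and 11.38 to 11.72, 11.76 and 11.74 (0.37 ± 0.06, adjusted p = 0.0039). In dDP discs it went from 11.12, 11.35 and 11.32 to 11.56, 11.69 and 11.56 (0.34 ± 0.06, adjusted p = 0.0031). Treated and untreated arrays did not overlap in any genotype. The calls in de2f1 and dDP discs held when any 1 of the arrays compared was left out. The difference of the rise from that in wild type was -0.33 ± 0.09 in de2f1 and -0.35 ± 0.09 in dDP discs, and neither passed (adjusted p = 0.72 and 0.21). In dDP discs the rise did not pass when those 6 arrays were fitted alone (adjusted p = 0.15).

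On the probe sets used, the other genes that rose passed in 1 genotype each. mRpS11 rose in wild type discs from 10.39, 10.37 and 10.42 to 10.62 and 10.61 (0.22 ± 0.05, adjusted p = 0.017), and its second probe set rose by 0.23 (adjusted p = 0.011). That second probe set also rose in dDP discs, by 0.16 (adjusted p = 0.036), where the one used did not pass (0.07, adjusted p = 0.37). mRpL42 rose in wild type discs from 10.20, 10.23 and 10.27 to 10.76 and 10.58 (0.43 ± 0.11, adjusted p = 0.041). Neither passed without irradiated wild type array 1 (adjusted p = 0.13 and 0.31), and the 3 calls in wild type discs became 1 without either irradiated array or without untreated array 2. mRpS5 rose in dDP discs from 11.01, 10.47 and 10.36 to 11.15, 11.27 and 11.02 (0.53 ± 0.14, adjusted p = 0.034), with untreated array 1 beside the irradiated ones. Without untreated arrays 2 and 3 its adjusted p was 0.77.

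De2f1 and wild type discs differed in a share of these genes near the background, which is no result about the set. Untreated, 3 were higher and 3 lower, 8.70% of the 69 (background 8.99%, with 3.89% higher and 5.1% lower), with a median of 0.04. Irradiated, 5 were higher and 3 lower, 11.6% of the 69 (background 8.63%, with 3.68% higher and 4.94% lower), with a median of 0.05. The irradiated count was 3 to 5 when any 1 of the 5 arrays compared was left out. The 2 contrasts share no arrays, only the estimate of spread. In both, 5 genes passed in the same direction: mRpL35, mRpS9 and mRpS26 were higher, and mRpL18 and mRpL48 lower. The matching overlap over all probe sets was not computed. Since the labels name no genetic background for any genotype, a mutation and its background cannot be told apart, also for genes that differed from wild type in both mutants.

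mRpL18, whose bacterial counterpart binds 5S ribosomal RNA, was lower in both mutants with and without irradiation. It read 9.74, 9.74 and 9.70 in untreated and 9.74 and 9.72 in irradiated wild type discs. In de2f1 discs it read 9.49, 9.42 and 9.50 untreated and 9.46, 9.47 and 9.41 irradiated. In dDP discs it read 9.21, 9.32 and 9.27 untreated and 9.16, 9.29 and 9.23 irradiated. The 3 genotypes did not overlap on any array, and untreated dDP array 1 lay within the range of the other dDP arrays. Against wild type the differences were -0.25 ± 0.05 (adjusted p = 0.0028) and -0.29 ± 0.05 (adjusted p = 0.0029) in de2f1 and -0.46 ± 0.05 (adjusted p = 4.1e-06) and -0.50 ± 0.05 (adjusted p = 7.1e-06) in dDP discs, untreated and irradiated. DDP discs were lower than de2f1 discs by -0.21 ± 0.05 untreated (adjusted p = 0.0045) and -0.22 irradiated (adjusted p = 0.0032).

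mRpL48, also of the large subunit, was also lower in both mutants. It read 10.15, 10.22 and 10.29 in untreated wild type, 9.69, 9.77 and 9.73 in untreated de2f1 and 9.76, 9.87 and 9.92 in untreated dDP discs. Both mutants lay below every wild type array, by -0.49 ± 0.06 (adjusted p = 7.7e-05) and -0.37 ± 0.06 (adjusted p = 2.5e-04). Irradiated, the differences were -0.32 ± 0.07 (adjusted p = 0.0064) and -0.48 ± 0.07 (adjusted p = 8.8e-05), the first of which did not pass without irradiated wild type array 1 (adjusted p = 0.10).

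mRpS9, whose bacterial counterpart reaches the transfer RNA in the peptidyl site, was higher in both mutants. It read 10.61, 10.66 and 10.67 in untreated wild type, 10.88, 10.86 and 10.90 in de2f1 and 10.90, 10.98 and 10.94 in dDP discs. The mutants lay above every wild type array, by 0.23 ± 0.04 (adjusted p = 0.0024) and 0.29 ± 0.04 (adjusted p = 1.0e-04). Irradiated, the differences were 0.26 ± 0.05 (adjusted p = 0.0025) and 0.22 ± 0.05 (adjusted p = 0.0032). mRpL14, a protein of the subunit interface, was higher in dDP discs by 0.46 ± 0.07 untreated (adjusted p = 2.5e-04) and 0.34 ± 0.08 irradiated (adjusted p = 0.0066). In de2f1 discs mRpL14 was higher by 0.36 ± 0.08 irradiated (adjusted p = 0.012), and its untreated value was 0.24 (adjusted p = 0.053). Both irradiated calls of mRpL14 were lost without irradiated wild type array 3 (adjusted p = 0.083 in dDP and 0.16 in de2f1 discs).

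mRpL35 separated the mutants from each other. It read 9.69, 9.65 and 9.72 in untreated wild type, 10.06, 10.07 and 10.08 in de2f1 and 9.45, 9.70 and 9.70 in dDP discs. De2f1 arrays were above all others, by 0.38 ± 0.06 against wild type (adjusted p = 0.0011), and dDP discs were lower than de2f1 discs by -0.46 ± 0.06 (adjusted p = 1.1e-04). Irradiated, it read 9.80 and 9.69 in wild type, 10.09, 10.15 and 10.08 in de2f1 and 9.45, 9.52 and 9.45 in dDP discs. The 3 genotypes then did not overlap, with de2f1 0.36 ± 0.07 above wild type (adjusted p = 0.0043, and 0.081 without irradiated wild type array 3) and dDP lower than wild type by -0.27 (adjusted p = 0.011). mRpS31, specific to mitochondria, was lower in untreated de2f1 discs, with 10.24, 10.21 and 10.27 against 10.54, 10.52 and 10.51 (-0.29 ± 0.05, adjusted p = 0.0030), and did not pass there after irradiation (adjusted p = 0.097).

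**Figure D5:**
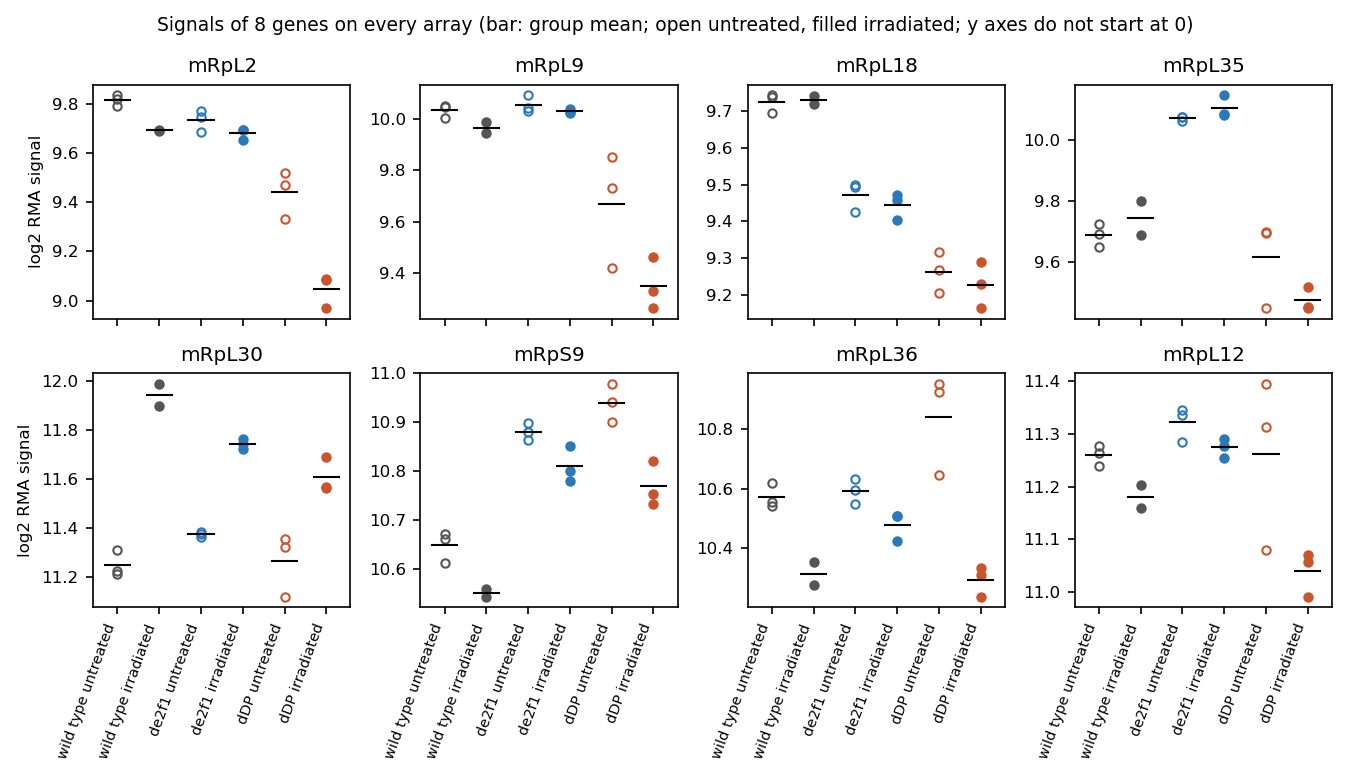
Log2 RMA signal (y axis, not starting at 0) of 8 genes on every array in the 6 groups (x axis), with open points for untreated and filled points for irradiated discs and bars for group means. mRpL2, mRpL9 and mRpL18 are lowest in dDP discs, mRpL30 is higher after irradiation in all 3 genotypes, mRpL35 is highest in de2f1 discs at 10.06 to 10.15, and for mRpL36 and mRpL12 untreated dDP array 1 lies below the other untreated dDP arrays.

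Other genes of mitochondrial translation were read from a list of 43, which holds small subunit proteins with other symbols, aminoacyl-tRNA synthetases, translation factors and related genes. In irradiated dDP against wild type discs 14 were lower and 5 higher (background 13.0% and 10.2%), with a median of -0.17. Against irradiated de2f1 discs 15 were lower and 5 higher (background 14.3% and 11.6%), with a median of -0.12. Untreated dDP discs had 9 lower and 7 higher than wild type (background 15.9% and 12.1%), with a median of -0.05. Irradiation gave 3 higher and none lower in wild type (background 2.59% and 1.92%) and none in either direction in de2f1 discs (background 1.37% and 0.927%). In dDP discs it gave 4 higher and 6 lower (background 4.45% and 4.38%).

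The largest difference in this list was in tko, which encodes the small subunit protein S12 of the decoding site but falls outside the symbol rule. It read 9.27, 9.35 and 9.26 in untreated and 9.34 and 9.33 in irradiated wild type discs. In de2f1 discs it read 11.24, 11.35 and 11.25 untreated and 11.22, 11.18 and 11.28 irradiated, and in dDP discs 11.09, 11.44 and 11.39 untreated and 11.14, 11.07 and 11.11 irradiated. All 12 arrays of both mutants thus lay above all 5 wild type arrays. The mutations and the genetic backgrounds, which the labels do not name, cannot be told apart here. The differences from wild type were 1.99 ± 0.07 (adjusted p = 8.8e-10) and 1.89 ± 0.08 (adjusted p = 5.1e-09) in de2f1 and 2.01 ± 0.07 (adjusted p = 1.7e-10) and 1.77 ± 0.08 (adjusted p = 2.8e-09) in dDP discs, untreated and irradiated. The mutants did not differ from each other by the test (adjusted p = 0.85 untreated and 0.28 irradiated). bonsai, the small subunit protein related to bacterial S15, did not pass between genotypes in any of the 6 comparisons and fell after irradiation in dDP discs (-0.21 ± 0.05, adjusted p = 0.018).

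Synthetases that charge mitochondrial transfer RNAs were among the genes lower in dDP discs. ArgRS-m, for arginine, was lower than in wild type by -0.57 ± 0.07 untreated (adjusted p = 3.0e-05) and -0.59 ± 0.08 irradiated (adjusted p = 7.3e-05), and lower in de2f1 discs by -0.50 ± 0.07 (adjusted p = 3.7e-04) and -0.34 ± 0.08 (adjusted p = 0.013). TrpRS-m, for tryptophan, was lower in irradiated dDP discs by -0.62 ± 0.09 against wild type (adjusted p = 1.9e-04) and -0.60 ± 0.08 against de2f1 (adjusted p = 1.1e-04). mRRF2, related to the factor that recycles ribosomes, was lower by -0.54 ± 0.09 (adjusted p = 5.4e-04) and -0.42 ± 0.08 (adjusted p = 0.0015) in the same comparisons. Higher in irradiated dDP discs were mtDNA-helicase, which unwinds the mitochondrial genome for replication (0.47 ± 0.09, adjusted p = 0.0014, against wild type), and mEFTu2, an elongation factor (0.25 ± 0.06, adjusted p = 0.0079).

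The elongation factor gene mEFTu1 rose after irradiation in 2 genotypes, by 0.41 ± 0.07 in wild type (adjusted p = 0.0033) and 0.34 ± 0.06 in dDP discs (adjusted p = 0.0047). Its partner mEFTs, which exchanges the nucleotide on mEFTu, rose in wild type discs by 0.26 ± 0.05 (adjusted p = 0.0070). In dDP discs mIF3, an initiation factor, rose by 0.50 ± 0.10 (adjusted p = 0.0057), while TyrRS-m, for tyrosine, fell by -0.46 ± 0.07 (adjusted p = 0.0014) and OXA1L, which inserts new proteins into the inner membrane, by -0.31 ± 0.06 (adjusted p = 0.0059). These changes in dDP discs are measured from the same 3 untreated arrays as those of the ribosomal protein genes.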

How the data were processed

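The values are log2 signals of an Affymetrix Drosophila Genome 2.0 array that the authors deposited after RMA, per the submitters' processing notes; the RMA version and probe annotation release are not given in the sources used here, and array scan dates were not used here. RMA takes background out, normalizes by quantiles and summarizes probes on a log2 scale, which narrows differences of weak probe sets. Array number limits the precision.

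Of 18952 probe sets, 183 controls were left out. Gene names came from the platform annotation (13647 tested probe sets with 1 symbol, 402 with several, 4720 with none), updated through RefSeq gene IDs, which matched 13544 of the 13647. limma 3.58.1 (R 4.3.3) fitted 1 mean per group over 17 arrays, with moderated tests and Benjamini-Hochberg adjustment over 18769 probe sets. The fit was tested on simulated data, with known shifts in irradiated dDP against wild type discs. It recovered 6 of 50 shifts of -0.25, 27 of 50 of -0.5 and 49 of 50 of -1 (log2). A gene that did not pass may therefore still differ by a small amount. No 2 arrays held identical values.

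Members, marker lists and comparison lists were chosen with earlier results of these data known. Genes are named by these rules: up to 6 passing genes per direction and comparison with the smallest adjusted p, those passing against the majority, the 3 highest and 3 lowest means, 9 genes named whatever their result, tko and bonsai, up to 4 genes per direction from the list of other mitochondrial translation genes, and Dp. Genes outside these rules are named as part of complete counts, and mRpS35 and mRpL12 belong to the 9.

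Alternatives were a trended and a robust prior, array weights, a filter on the dimmest 40% of probe sets, quantile normalization, each comparison's arrays alone, a replicate block, all probe sets per gene, 3 covariates and leaving arrays out. An array was left out only for comparisons that included its group, so its effect on the others through the shared spread was not read.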

Additional observations from a re-analysis of the deposited data

How the results depend on the processing

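Without untreated dDP arrays 2 and 3, the median change over the 69 genes became -0.046 for irradiation in dDP (4 genes passing), -0.15 for dDP against wild type untreated, -0.17 for dDP against de2f1 untreated, and -0.021 and -0.025 for the difference in response between dDP and wild type or de2f1. Single genes turned: mRpL12 in untreated dDP against wild type to -0.18 (adjusted p = 0.034), mRpS6 and mRpL45 in untreated dDP against de2f1 to -0.00172 and -0.00785. With actin as a covariate, 5 genes passed for irradiation in wild type, 11 in dDP and 13 for irradiated de2f1 against wild type. Medians then were -0.18 for irradiated and -0.094 for untreated dDP against wild type, 0.032 for irradiated de2f1 against wild type, -0.011 and -0.023 for irradiation in de2f1 and wild type, and -0.073 for the difference in response of dDP and de2f1. Array weights gave 6, 3 and 54 passing genes for irradiation in wild type, de2f1 and dDP, 11 and 31 for the difference in response of dDP from wild type and de2f1, and a median of -0.23 for the last. Fitting a comparison's arrays alone left 6 genes for untreated dDP against wild type, 0 for irradiation in dDP, 3 for untreated dDP against de2f1 and 5 for irradiated de2f1 against wild type. The salivary gland covariate left 5 for irradiation in dDP, 12 and 13 for untreated dDP against wild type and de2f1, and a median of -0.0086 for irradiation in de2f1. The fat body covariate gave medians of -0.15 and -0.069 for irradiated dDP against de2f1 and wild type, 0.089 for untreated de2f1 against wild type, -0.040 for irradiation in de2f1 and -0.015 for its difference from wild type. Quantile normalization gave medians of 0.080 and 0.057 for irradiated and untreated de2f1 against wild type. The cause of these changes was not tested. Counts of passing genes under the alternatives, throughout the text, are given without the share of all probe sets that passed in the same setting.

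Leaving out 1 array at a time gave 1 to 2 passing genes for irradiation in wild type, 11 to 55 in dDP, 16 to 37 and 19 to 29 for dDP against wild type untreated and irradiated, 12 to 28 for untreated dDP against de2f1, 3 to 5 for irradiated de2f1 against wild type, and 0 to 27 and 0 to 37 for the difference in response of dDP from wild type and de2f1. Medians ran from -0.071 to -0.027 and -0.041 to -0.010 for irradiation in wild type and de2f1, 0.025 to 0.082 for irradiated de2f1 against wild type, -0.20 to -0.16 for irradiated dDP against de2f1, -0.014 to 0.040 for the difference in response of de2f1 and wild type and -0.26 to -0.12 for that of dDP and de2f1.

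Same-numbered arrays did not pair: over 40 pairs the correlation of their deviations ran from -0.40 to 0.46 and was over 0.1 in 7. With the replicate number as a block, 21 genes passed for irradiation in dDP. Of 249 results on single genes under 29 settings, 4087 values kept their side of the threshold, 324 no longer passed and 60 newly passed. Another 3 changed direction where the gene passed in the main fit or the alternative. A change of direction where neither passed was not counted and is among the 4087.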
